A study of Mus musculus with 9 samples.

Results

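The nuclear-encoded respiratory chain genes examined here are the protein-coding mouse genes whose symbol begins with Nduf, Uqcr or Atp5, is Cox followed by a digit, or is Sdha, Sdhb, Sdhc, Sdhd or Cyc1. The rule found 104 Ensembl identifiers with 103 symbols among the 55536 genes of the count tables, because Atp5o is listed under 2 identifiers. By complex these were 46 genes of complex I, 4 of complex II, 9 of complex III, 27 of complex IV and 18 of complex V. A further 14 non-coding or pseudogene entries with such symbols were left out. The rule used no measured value.

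The measurements came from messenger RNA of adult C57Bl6 mice, taken from dorsal root ganglia of the lumbar level, where the cell bodies of sensory neurons lie beside the spinal cord. There were 5 libraries of a Prdm12 inducible conditional knock-out (icKO) and 4 control libraries whose genotype is given as wild type, compared 1 month after tamoxifen, the drug that switches on such a deletion. The labels name neither the Cre line nor its promoter, do not say which cells lost the gene, and do not say whether controls carried Cre or were injected. Prdm12 encodes a transcriptional regulator of pain-sensing neurons. Whether each library stands for its own mouse is not stated in the labels. The p-values therefore weigh differences against the spread of these 9 libraries, some of which may be technical.

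The respiratory chain sits in the inner mitochondrial membrane and passes electrons from NADH and succinate to oxygen. Complexes I, III and IV pump protons as the electrons pass, and ATP synthase (complex V) lets the protons flow back to make ATP. Most subunits are encoded in the nucleus, a small core set is encoded by mitochondrial DNA, and the 2 sets have to be assembled together. Sensory neurons with long axons are among the cells that depend heavily on this supply of ATP.

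The deletion was visible in the counts: Prdm12 lay between 116 and 163 CPM (counts scaled to a common library total, with TMM factors) in the 4 controls and between 22.3 and 26.2 CPM in the 5 icKO libraries (edgeR quasi-likelihood test, log2 fold change -2.48, SE 0.09, adjusted p = 2.51e-08). Library totals ran from 19607740 to 29481589 counts, and 3 counts, taken as the detection floor, corresponded to 0.102 to 0.153 CPM. Neuronal markers were high in every library: the 8 sensory neuron markers summed to between 7153 and 9292 CPM. In these bulk samples, fewer cells of a type and less RNA per cell cannot be told apart. Some libraries stood apart in markers of neighbouring tissue. The 10 skeletal muscle markers summed to 60.5 CPM in control 2 and 35.6 CPM in icKO 1, against 4.6 to 17 CPM in the other libraries. The 5 spinal cord markers summed to 48.1 CPM in control 4, against 6.04 to 12.4 CPM elsewhere. In control 4 that sum was mostly Gfap, at 29.7 CPM, and Slc1a2, at 17.8 CPM. Olig2, Mog and Chat were at 0.0515, 0.206 and 0.258 CPM there, near or under the detection floor. Elsewhere they were at most at 0.0411, 0.204 and 0.155 CPM. The part of spinal cord tissue in the sum was not tested. The 7 adipocyte markers were highest in control 1, at 23.8 CPM. The 4 fibroblast markers summed to 1741 CPM in icKO 4 and to 586 CPM in control 1, against 741 to 1282 CPM in the other libraries.

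Summed over all 104 genes, the respiratory chain took 1.14% to 1.45% of the counts of a library. The sum was 11819, 14431, 11682 and 11527 CPM in control 1 to 4, and 12766, 12604, 12141, 13554 and 12462 CPM in icKO 1 to 5. Control 2 was the highest of all 9 libraries and icKO 4 the next, and the other 3 controls lay below every icKO library. The group means were 12365 ± 1383 CPM (SD, n = 4) in control and 12705 ± 527 CPM (SD, n = 5) in icKO, a log2 ratio of 0.04 that was smaller than the spread between the controls.

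The same order of libraries recurred in complexes I, III and IV. Complex I summed to 3796, 4909, 3754 and 3719 CPM in control 1 to 4 and to 4233, 4147, 3957, 4579 and 4090 CPM in icKO 1 to 5. Genes were assigned to complexes by symbol, so this sum includes the assembly factors, Ndufa4 and Ndufa4l2, and complex IV leaves Ndufa4 out. The 36 complex I subunit genes alone summed to 3195, 4069, 3161 and 3107 CPM in the controls. In icKO they summed to 3534, 3469, 3311, 3726 and 3401 CPM. Complex III, which hands electrons from ubiquinol to cytochrome c, was at 1015, 1237, 996 and 1001 CPM in the controls and at 1074, 1085, 1046, 1169 and 1089 CPM in icKO. In both complexes, control 2 lay above all icKO libraries and the remaining controls below them. Complex IV, the terminal oxidase, summed to 2116, 2795, 2134 and 2181 CPM in the controls and to 2428, 2390, 2253, 2672 and 2393 CPM in icKO. ATP synthase summed to 4200, 4734, 4100 and 3968 CPM in the controls and to 4329, 4277, 4185, 4424 and 4195 CPM in icKO, so that control 1 lay within the range of the icKO libraries. Complex II, which is also an enzyme of the citric acid cycle and has no mitochondrially encoded subunit, varied least, at 693, 754, 698 and 658 CPM in the controls and 701, 705, 700, 710 and 696 CPM in icKO. The log2 ratio of the group means was 0.05 for complex I, 0.04 for complex III, 0.07 for complex IV and 0.01 for complex V. For complex II the group means were 701 ± 39.7 CPM (SD, n = 4) in control and 703 ± 5.5 CPM (SD, n = 5) in icKO.

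**Figure D1:**
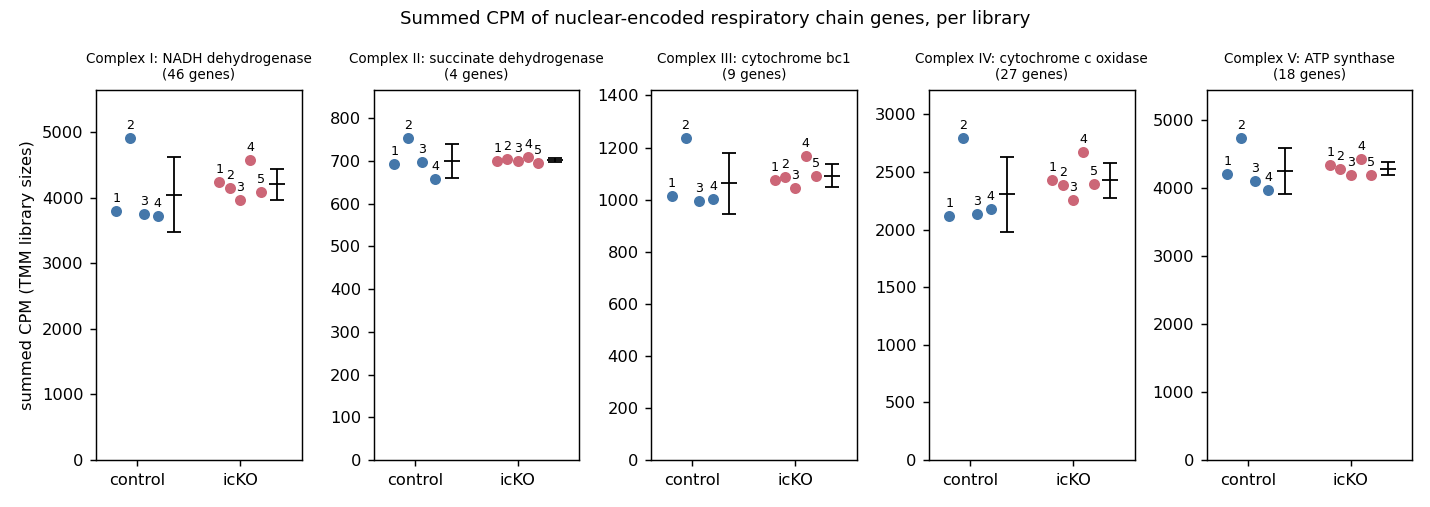
Summed CPM of the members of each complex (y axis, CPM from 0) for each library (points, numbered by replicate) in the 4 control and 5 icKO libraries, with the mean and SD of the group beside the points. Control 2 is the highest point of all 9 in every panel, and icKO 4 the highest of the icKO libraries.

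Gene by gene, no member was called between icKO and control. Of the 104 genes, 100 passed the filter on low counts, and at an adjusted p under 0.05 (edgeR's quasi-likelihood test, Benjamini-Hochberg adjustment over 17258 genes) 0 were higher and 0 lower in icKO. Among all 17258 genes tested, 0.475% were called higher and 0.377% called lower. DESeq2 also called 0 members in either direction. One member, Cox18, had an unadjusted p under 0.05, where 11.1% of all genes tested did. The values of the 2 groups overlapped in all 104 members, whereas they were separate in 4.5% of all genes tested. The median log2 fold change of the 100 members was 0.04 (all genes tested, 0.00), 69 of them lay above 0 and 31 below, and the estimates ran from -0.73 to 0.23. A p that misses the threshold does not show that levels were equal, and the intervals give the sizes that the data allow. For 92 of the 100 members, the whole 95% confidence interval of the log2 fold change, not adjusted for the number of genes, lay between -0.5 and 0.5. The other 8 were Ndufa4l2, Uqcrb, Cox6c, Cox4i2, Cox6a2, Cox20, Atp5g2 and Atp5l. On simulated counts with the sample sizes and spread of this comparison, 76% of genes changed 1.5-fold and 85.7% of genes changed 2-fold were called. Of genes lowered to 0.667-fold, 69.4% were called. Each simulated gene was drawn independently, over all levels and without library deviations shared between genes. These shares therefore do not give the power for the members, which varied together between libraries.

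**Figure D2:**
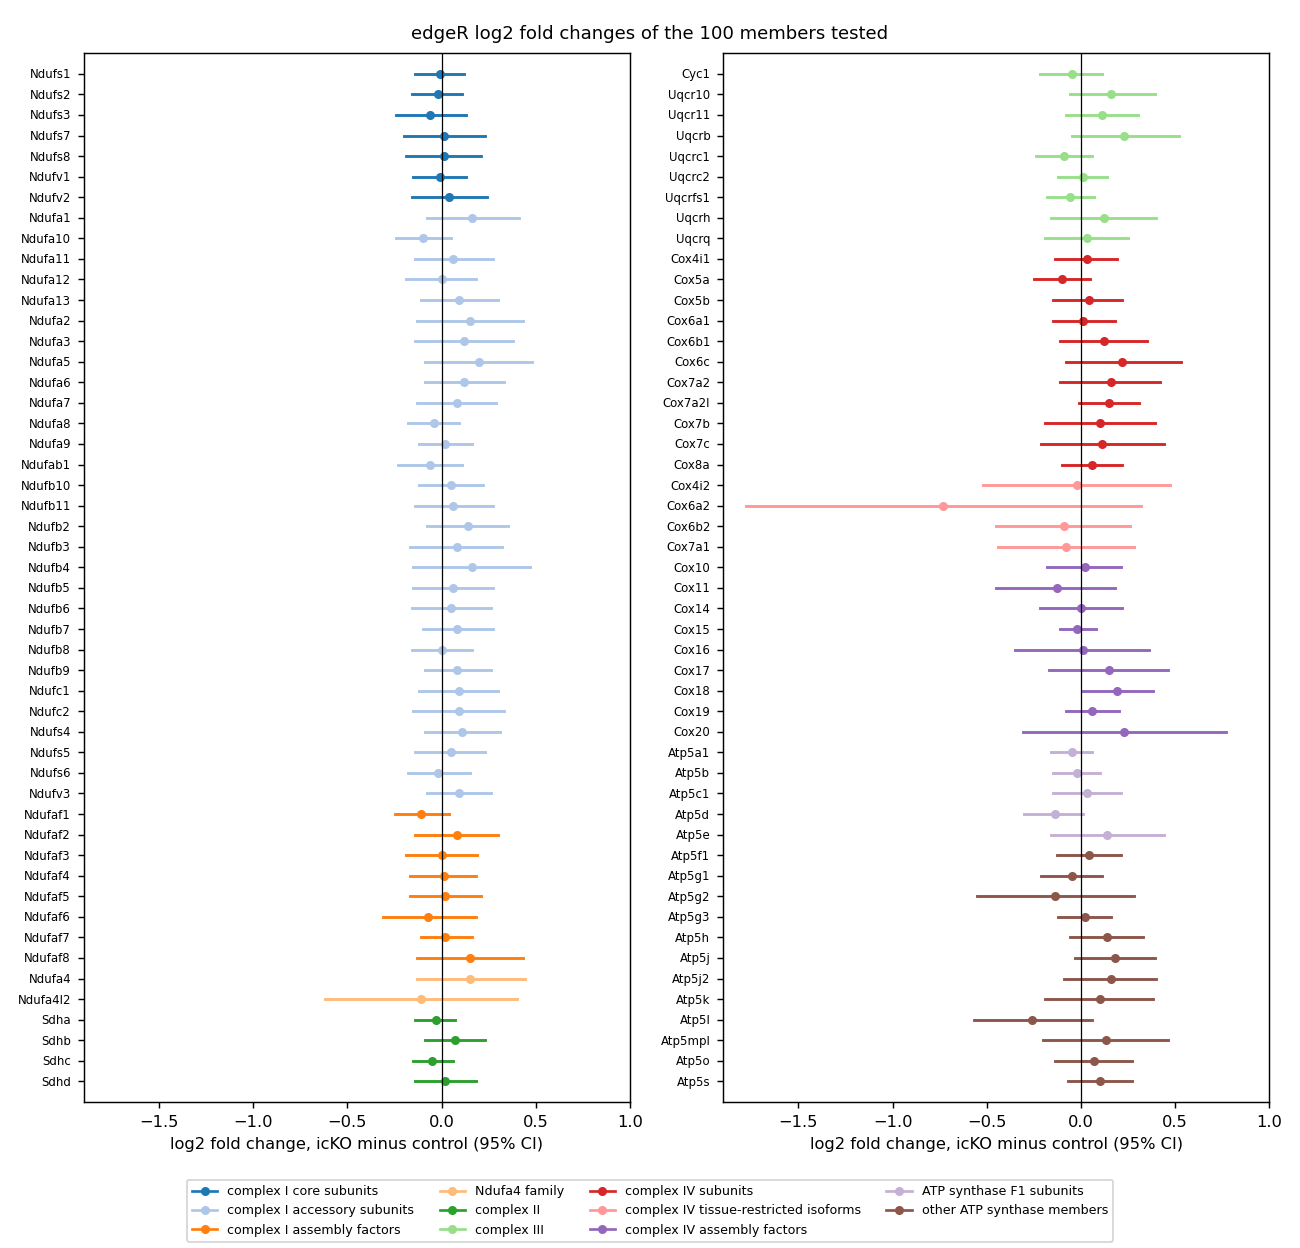
Log2 fold change of icKO minus control (x axis) with its 95% confidence interval (bars) for the 100 members tested, from edgeR, coloured by class. The estimates of core complex I subunits, from -0.06 to 0.04, and of complex II, from -0.05 to 0.07, sit close to 0, and Cox6a2, at -0.73, has the widest interval.

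Respiratory chain genes are known to share promoter elements, bound by NRF1, by the ETS factor GABPA, by YY1 and by the ERR nuclear receptors. The promoters of the members were searched for a core motif of each. RefSeq promoter windows of GRCm38.p6, from 250 bases before to 50 bases after the start site, were found for 81 members. The NRF1 core CGCATGCG, read on both strands, was in 11 of the 81 windows (13.6%), against 3.92% of 11567 tested protein-coding genes with a window and 2.07% of all 27025 genes with one. The ETS core CCGGAAG was in 23 windows (28.4%), against 17.8% and 9.93%. The YY1 motif AAGATGGC was in 12 windows (14.8%), against 4.68% and 3.19%. The ERR motif TCAAGGTCA was in 2 windows (2.47%), those of Atp5g3 and Sdhd, against 0.329% and 0.466%. At least 1 of the 4 motifs was in 38 of the 81 windows (46.9%), against 24.4% of the tested protein-coding genes. None of the 4 motifs contains another. A match is a description of the sequence and not a binding site, and its part in the measured levels was not tested.

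For each complex, the stretch below is from the member whose sequence before its start site, outside annotated exons of protein-coding transcripts, held the most different motifs (ties by level per kb). Members on chromosomes 8 and 18 were not considered in this choice. Each stretch reads 5′ to 3′ on the gene's strand, and capitals mark the motif matches on either strand. The Ndufa11 stretch is at chr17:56717686-56717730 (plus strand), with the NRF1 core 52 to 59 bases before the start. The Sdhd stretch is at chr9:50603869-50603909 (minus strand), with the ETS core 40 to 46 bases before the start, between Sdhd and its divergent neighbour Timm8b. The Uqcrh stretch is at chr4:116075072-116075100 (minus strand), with the ETS core 4 to 10 bases before the start. The Cox20 stretch is at chr1:178319030-178319105 (plus strand), with the ETS core at 97 to 103 and the YY1 motif at 68 to 75 bases before the start. The Atp5j stretch is at chr16:84835024-84835123 (minus strand), in the region shared with the divergent gene Gabpa, and holds the NRF1 core at 140 to 147, the YY1 motif at 81 to 88 and the ETS core at 55 to 61 bases before the start.
Ndufa11: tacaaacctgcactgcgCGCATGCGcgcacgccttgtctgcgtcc
Sdhd: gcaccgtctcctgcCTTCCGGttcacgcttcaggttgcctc
Uqcrh: actacgaggagtatgccgcaCTTCCGGcc
Cox20: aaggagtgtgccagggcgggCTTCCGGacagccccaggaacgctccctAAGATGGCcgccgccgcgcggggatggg
Atp5j: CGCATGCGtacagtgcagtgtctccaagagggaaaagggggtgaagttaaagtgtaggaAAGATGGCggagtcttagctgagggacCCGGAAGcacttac

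The 7 nuclear-encoded core subunits of complex I carry the flavin and the iron-sulfur clusters that take electrons from NADH. Their log2 fold changes ran closest to 0 of any complex I class, between -0.06 and 0.04 with a median of -0.01, and none passed the test (smallest adjusted p = 0.883). Ndufs3, a subunit of the arm that carries the clusters, was at 42.1, 48.1, 44 and 33.1 CPM in control 1 to 4 and at 42, 41.1, 38.9, 38.9 and 40.6 CPM in icKO 1 to 5. All icKO values of Ndufs3 lay inside the range of the controls. Ndufv2, an iron-sulfur subunit beside the NADH site, was at 150, 196, 150 and 145 CPM in the controls and at 158, 159, 152, 187 and 167 CPM in icKO. Here control 2 was the highest library and the remaining controls the lowest 3. Ndufs7, whose cluster is the last before ubiquinone, had the highest level per kb of this class, 139 CPM per kb of mRNA in the controls, and a log2 fold change of 0.01 (SE 0.10).

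The 29 accessory subunits of complex I surround that core and are needed for its assembly and stability. Of these, 24 had a log2 fold change above 0 and 5 below, with a median of 0.08, and 0 passed the test in either direction. Ndufa5, a small subunit of the matrix arm encoded at chr6:24518666-24528013 (minus strand, mm10), was at 81.7, 128, 82.5 and 79.4 CPM in control 1 to 4 and at 107, 104, 95.4, 125 and 101 CPM in icKO 1 to 5. The 5 icKO libraries lay above 3 controls and below control 2, and the log2 fold change was 0.20 (SE 0.13, adjusted p = 0.664). Without control 2, left out because it was high in these same members, it was 0.39 (SE 0.08, adjusted p = 0.0435). That value follows in part from the choice of the library left out. Ndufa1, an X-linked membrane subunit, was at 53.5, 78.9, 52.7 and 58.2 CPM in the controls and at 64.8, 64.5, 63.9, 79.8 and 67.6 CPM in icKO, with a log2 fold change of 0.16 (SE 0.11). Again control 2 stood among the highest libraries and the remaining controls below all of icKO. Ndufa2 had the highest level per kb of the accessory subunits, 179 CPM per kb in the controls, and a log2 fold change of 0.15 (SE 0.13). Ndufa10 had the lowest estimate of the class, -0.10 (SE 0.07, adjusted p = 0.677). Ndufab1, the mitochondrial acyl carrier protein, had the lowest level per kb of the complex I subunits, 6 CPM per kb, and the annotated mRNA used for it was long, 3479 bases.

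The 8 Ndufaf genes encode assembly factors, which build complex I and are no part of the finished enzyme. Their median log2 fold change was 0.02, with 5 above and 3 below 0. Ndufaf1, a factor for the membrane arm, was at 26, 28.3, 25.4 and 23.9 CPM in the controls and at 23.3, 25.9, 22.3, 24.7 and 24.1 CPM in icKO (log2 fold change -0.11, SE 0.07, adjusted p = 0.636). Ndufaf8 was at 12.4, 21.1, 14 and 15 CPM in the controls and at 17, 16.8, 16.8, 19.2 and 17.1 CPM in icKO (log2 fold change 0.15, SE 0.13, adjusted p = 0.75). The 2 genes thus pointed in opposite directions, neither beyond the spread of the libraries. Ndufaf2 had the highest level per kb of the factors, 33.4 CPM per kb, but 65.6% of its exon bases overlap the antisense gene B230220B15Rik, and the counting is not stated to use strand.

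Ndufa4 was named as a complex I subunit and is now known as a subunit of complex IV, and Ndufa4l2 is its paralog induced by hypoxia. Ndufa4 was one of the most abundant members, at 389, 583, 385 and 415 CPM in control 1 to 4 and at 481, 457, 432, 618 and 474 CPM in icKO 1 to 5 (log2 fold change 0.15, SE 0.13, adjusted p = 0.758). Control 2 and icKO 4 were the 2 highest libraries, and the remaining controls lay below all of icKO. Ndufa4l2 was at 0.477 to 0.948 CPM in the controls and 0.639 to 0.711 CPM in icKO, which gave an estimate of -0.11 on the log2 scale (SE 0.24, interval -0.62 to 0.40). Per kb of mRNA the controls held 726 CPM of Ndufa4 and 0.793 CPM of Ndufa4l2.

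All 4 subunits of complex II were measured and none passed the test, with log2 fold changes from -0.05 to 0.07. Sdha, the flavoprotein that oxidises succinate, was at 316, 319, 335 and 305 CPM in the controls and at 313, 313, 321, 300 and 312 CPM in icKO, with no library apart from the others. Sdhb, the iron-sulfur subunit, was at 164, 201, 164 and 159 CPM in the controls and at 182, 183, 172, 191 and 176 CPM in icKO (log2 fold change 0.07, SE 0.07, adjusted p = 0.799). Sdhb thus had the pattern seen in complex I, with control 2 above and the remaining controls below icKO, while Sdha did not. Of the membrane anchors, Sdhc had a log2 fold change of -0.05 (SE 0.05) and Sdhd of 0.02 (SE 0.07).

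In complex III, 6 of 9 members lay above 0 and 3 below, none past the test (smallest adjusted p = 0.57). The small subunits Uqcrb and Uqcr10 had the largest estimates, and the catalytic Cyc1 and Uqcrfs1 and the core protein Uqcrc1 were the 3 below 0. Uqcrb, which binds ubiquinone, was at 22.3, 32.9, 21.1 and 24.5 CPM in control 1 to 4 and at 28.6, 27.8, 26.2, 36.9 and 28.8 CPM in icKO 1 to 5 (log2 fold change 0.23, SE 0.13). Of its 50-base mRNA windows 43.4% also occur in other annotated genes. Uqcr10 was at 104, 145, 104 and 111 CPM in the controls and at 131, 119, 121, 153 and 128 CPM in icKO (log2 fold change 0.16, SE 0.10, adjusted p = 0.633). In both genes, 3 controls lay below every icKO library and control 2 within their range. Uqcrh, the acidic hinge protein, had the highest level per kb of complex III, 378 CPM per kb in the controls (log2 fold change 0.12, SE 0.13). Cyc1, the cytochrome c1 haem protein, was at 151, 144, 141 and 122 CPM in the controls and at 125, 143, 145, 120 and 141 CPM in icKO, and control 2 was not its highest control.

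Of the 11 broadly expressed complex IV genes, 10 had a log2 fold change above 0 and 1 below, with a median of 0.10, and 0 passed the test. Cox7a2l, a factor that joins complexes III and IV into supercomplexes, had the smallest p of the class. It was at 70.3, 87.3, 70.1 and 72.3 CPM in the controls and at 87.6, 78.9, 77.7, 88.7 and 82.7 CPM in icKO (log2 fold change 0.15, SE 0.07, adjusted p = 0.494). Cox6c, a small membrane subunit, was at 147, 231, 144 and 164 CPM in the controls and at 196, 185, 175, 251 and 193 CPM in icKO (log2 fold change 0.22, SE 0.14, adjusted p = 0.627). In Cox7a2l and Cox6c alike, control 2 lay inside the icKO range and the remaining controls below it. Cox4i1, the largest nuclear-encoded subunit, was at 325, 413, 340 and 312 CPM in the controls and at 361, 356, 342, 362 and 349 CPM in icKO (log2 fold change 0.03, SE 0.08). Among the other partners of a tissue-restricted isoform, the log2 fold change was 0.01 for Cox6a1 (SE 0.08), 0.12 for Cox6b1 (SE 0.11), 0.16 for Cox7a2 (SE 0.12), 0.10 for Cox7b (SE 0.13) and 0.06 for Cox8a (SE 0.07). Cox5a, which binds the haem-carrying core from the matrix side, was the member below 0, at -0.10 (SE 0.07).

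The 7 tissue-restricted complex IV isoforms were at most at 4.05 CPM in any library, in contrast to their broadly expressed partners. Cox6a2, the heart and skeletal muscle form, was at 0.403, 1.59, 0.255 and 0.515 CPM in control 1 to 4 and at 0.471, 0.465, 0.209, 0.411 and 0.513 CPM in icKO 1 to 5, with an estimate of -0.73 (SE 0.48, interval -1.78 to 0.32). Without control 2 it was 0.11, in the other direction. Control 2 was also the library with the highest sum of the 10 skeletal muscle markers, 60.5 CPM, and their part in the Cox6a2 value was not tested. In icKO 1, which had the next highest muscle sum, Cox6a2 was at 0.471 CPM, within the range of the other libraries. Cox8b, the form of muscle and brown fat, was at 1.06, 0.245, 0.255 and 0.103 CPM in the controls and at 0.135, 0.0775, 0, 0.0822 and 0.079 CPM in icKO, that is 29 counts in control 1 and at most 7 elsewhere. It did not pass the count filter. The highest Cox8b library, control 1, was also highest in the 7 adipocyte markers, with 3.67 CPM of Ucp1, the uncoupling protein of brown fat, against at most 0.474 CPM elsewhere. The part of fat in the Cox8b value was not tested. Without a count filter Cox8b was called lower in icKO (adjusted p = 0.0368).

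Cox7a1, the muscle and brown fat form of Cox7a2, was at 2.53, 3.18, 1.93 and 3.04 CPM in the controls and at 2.35, 2.52, 2.16, 2.71 and 2.84 CPM in icKO. Its groups overlapped fully. Control 2, the library with the highest muscle sum, was its highest library, at 3.18 CPM. In icKO 1, which had the next highest muscle sum, it was among the lower values. The part of muscle in the Cox7a1 values was not tested. Cox6b2, known from testis, was at 2.49 to 4.05 CPM in the controls and 2.6 to 3.95 CPM in icKO, and Cox4i2, an isoform induced at low oxygen, at 0.62 to 1.08 and 0.662 to 1.07 CPM. Cox7b2 reached 8 counts in 1 library and at most 5 in the others. Cox8c, a testis form, had 0 counts in all 9 libraries, which allows up to 0.153 CPM in the shallowest library, by counting error only.

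**Figure D3:**
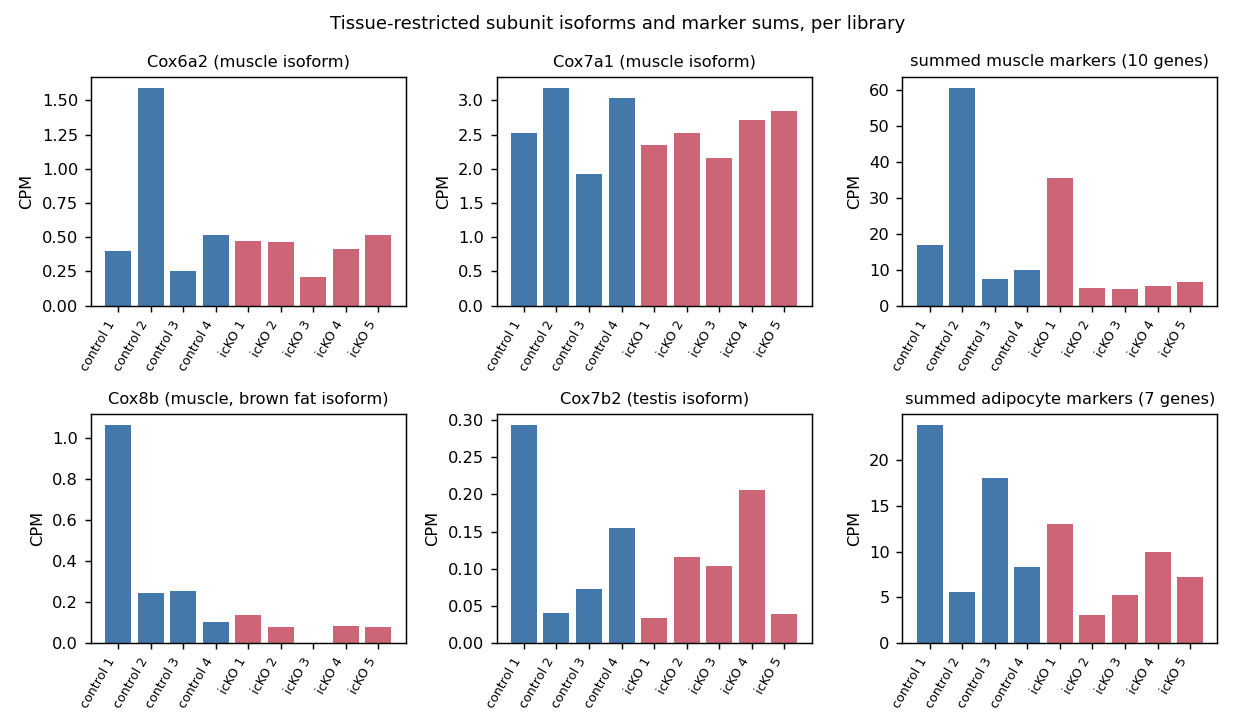
CPM per library (bars from 0; control in blue, icKO in red) of 4 tissue-restricted complex IV isoforms and the summed CPM of the skeletal muscle and adipocyte marker lists. Cox6a2 is highest in control 2 at 1.59 CPM, as is the muscle sum, and Cox8b is highest in control 1 at 1.06 CPM, as is the adipocyte sum.

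The 9 complex IV assembly factors bring haem, copper and membrane insertion to the enzyme. Cox18, which inserts part of the mitochondrially encoded subunit COX2 into the membrane, had the smallest p of all members. Its gene lies at chr5:90214724-90224001 (minus strand, mm10). It was at 20.1, 21.7, 22.5 and 17.7 CPM in control 1 to 4 and at 23.9, 26.8, 21.6, 22.2 and 23 CPM in icKO 1 to 5. The groups overlapped, with icKO 3 and icKO 4 under the highest control, and the log2 fold change of 0.19 (SE 0.09) did not pass the test (unadjusted p = 0.0411, adjusted p = 0.42). Cox17, the copper chaperone, was at 7.4, 10.4, 7.07 and 10.8 CPM in the controls and at 11.6, 8.33, 9.23, 10.3 and 9.75 CPM in icKO (log2 fold change 0.15, SE 0.14), and 52.7% of its windows occur in other genes. Cox14, a factor of the early assembly of COX1, had the highest level per kb of these factors, 89.4 CPM per kb, and means of 64.7 ± 12 CPM (SD, n = 4) in control and 64.7 ± 4.85 CPM (SD, n = 5) in icKO. For Cox15 and Cox10, which make haem a, the estimates were -0.02 (SE 0.04) and 0.02 (SE 0.09).

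ATP synthase held the most abundant members. Among the F1 subunits, which form the catalytic head and its stalk, Atp5b, the catalytic subunit, was at 1539, 1536, 1426 and 1316 CPM in control 1 to 4 and at 1453, 1479, 1436, 1397 and 1392 CPM in icKO 1 to 5 (log2 fold change -0.02, SE 0.06). Its partner in the head, Atp5a1, was at 913, 931, 964 and 864 CPM in the controls and at 907, 900, 901, 847 and 889 CPM in icKO (log2 fold change -0.05, SE 0.05). In neither gene did control 2 stand apart. Atp5d, of the rotating stalk, was at 190, 201, 177 and 168 CPM in the controls and at 159, 181, 173, 147 and 173 CPM in icKO (log2 fold change -0.14, SE 0.07, adjusted p = 0.51). Atp5e, the smallest F1 subunit, went the other way, at 101, 166, 111 and 130 CPM in the controls and 135, 125, 125, 176 and 138 CPM in icKO (log2 fold change 0.14, SE 0.14, adjusted p = 0.791). Of the 5 F1 subunits, 2 lay above 0 and 3 below, and none passed the test.

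The other ATP synthase members form the membrane part, the side stalk and small accessory subunits, except Atp5s, which was not counted as a subunit here. Of the 12 tested, 9 lay above 0 and 3 below, with a median of 0.08 and a smallest adjusted p of 0.552, that of Atp5j. Atp5j, of the side stalk, was at 113, 156, 118 and 117 CPM in the controls and at 143, 136, 138, 164 and 133 CPM in icKO (log2 fold change 0.18, SE 0.10). Once more 3 controls lay below every icKO library and control 2 within them. Atp5l, a subunit of the dimer interface, was at 2.86, 3.43, 2.99 and 3.97 CPM in the controls and at 2.89, 2.91, 2.58, 3.17 and 2.25 CPM in icKO (log2 fold change -0.26, SE 0.15, adjusted p = 0.58), but 84.8% of its windows occur in other annotated genes. Atp5mpl, a small protein of the membrane part, had the highest level per kb of this class, 593 CPM per kb in the controls, and was at 182, 284, 175 and 227 CPM in the controls and 217, 218, 205, 315 and 233 CPM in icKO. The ring that turns in the membrane is built from one mature protein encoded by 3 genes. Of these, Atp5g3 was at 335 ± 34.1 CPM (SD, n = 4) in control and 340 ± 7.36 CPM (SD, n = 5) in icKO, Atp5g1 at 25.3 ± 1.92 and 24.4 ± 1.82 CPM, and Atp5g2 at 1.39 ± 0.205 and 1.26 ± 0.235 CPM. Their log2 fold changes were 0.02, -0.05 and -0.14 (SE 0.07, 0.07 and 0.19), and Atp5g2 shares 87.4% of its windows with other genes. The second Atp5o identifier had 0 counts in all libraries, and all of its exon bases overlap Atp5o or Donson.

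The library pattern that recurred across the complexes was largely one of control 2 and icKO 4. Control 2 was the highest of the 4 controls in 86 of the 100 members tested, against 27.5% of all genes tested, and the lowest in 0. By complex, it was the highest control in 45 of 46 members of complex I, 3 of 4 of complex II, 7 of 9 of complex III, 18 of 24 of complex IV and 13 of 17 of complex V. In the icKO group, icKO 4 was the highest library in 64 members, against 26.5% of all genes tested, and icKO 3 the lowest in 56, against 17.7%. These counts describe single libraries and carry no test. The fibroblast marker sum was also highest in icKO 4, at 1741 CPM, while in control 2, at 1263 CPM, it lay within the range of the other libraries, and its part in the pattern was not tested.

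The deviation of these libraries went with mRNA length. In the 37 members with an mRNA under 700 bases, the median deviation of control 2 from the other controls was 0.45 on the scale of log2(CPM + 0.5), in the 30 members from 700 to under 1200 bases it was 0.39, and in the 33 longer members it was 0.19. Genes outside the respiratory chain showed the same order, with medians of 0.30 over 253 genes, 0.22 over 1010 genes and -0.02 over 13429 genes in these length classes. For icKO 4 the medians of the members were 0.21, 0.16 and 0.05, and those of the other genes 0.24, 0.10 and -0.01. For control 4 the medians of the members also fell with length, at -0.06, -0.14 and -0.15, but all lay below 0. Those of the other genes were 0.03, -0.09 and 0.00. Each deviation is taken from the other libraries of the group, so a high control 2 lowers those of the remaining controls. The fold changes of the members followed length in the same manner: the median log2 fold change was 0.11 in the shortest class, with 31 of 37 above 0, then 0.03 with 22 of 30 above 0, and near 0 with 16 of 33 above 0 in the longest. Other genes had medians of 0.10, 0.05 and -0.01 in these classes. Across the 100 members, Spearman's rho of length and log2 fold change was -0.45, a correlation over genes of the same 9 libraries and so a description only. Cytosolic ribosomal protein genes, another set of short mRNAs, summed to 3522, 4755, 3798 and 4286 CPM in the controls and to 4582, 4260, 4182, 5382 and 4414 CPM in icKO. Of 81 of them tested 0 were called, with a median log2 fold change of 0.15. The part of mRNA length in the respiratory chain values was not tested.

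**Figure D4:**
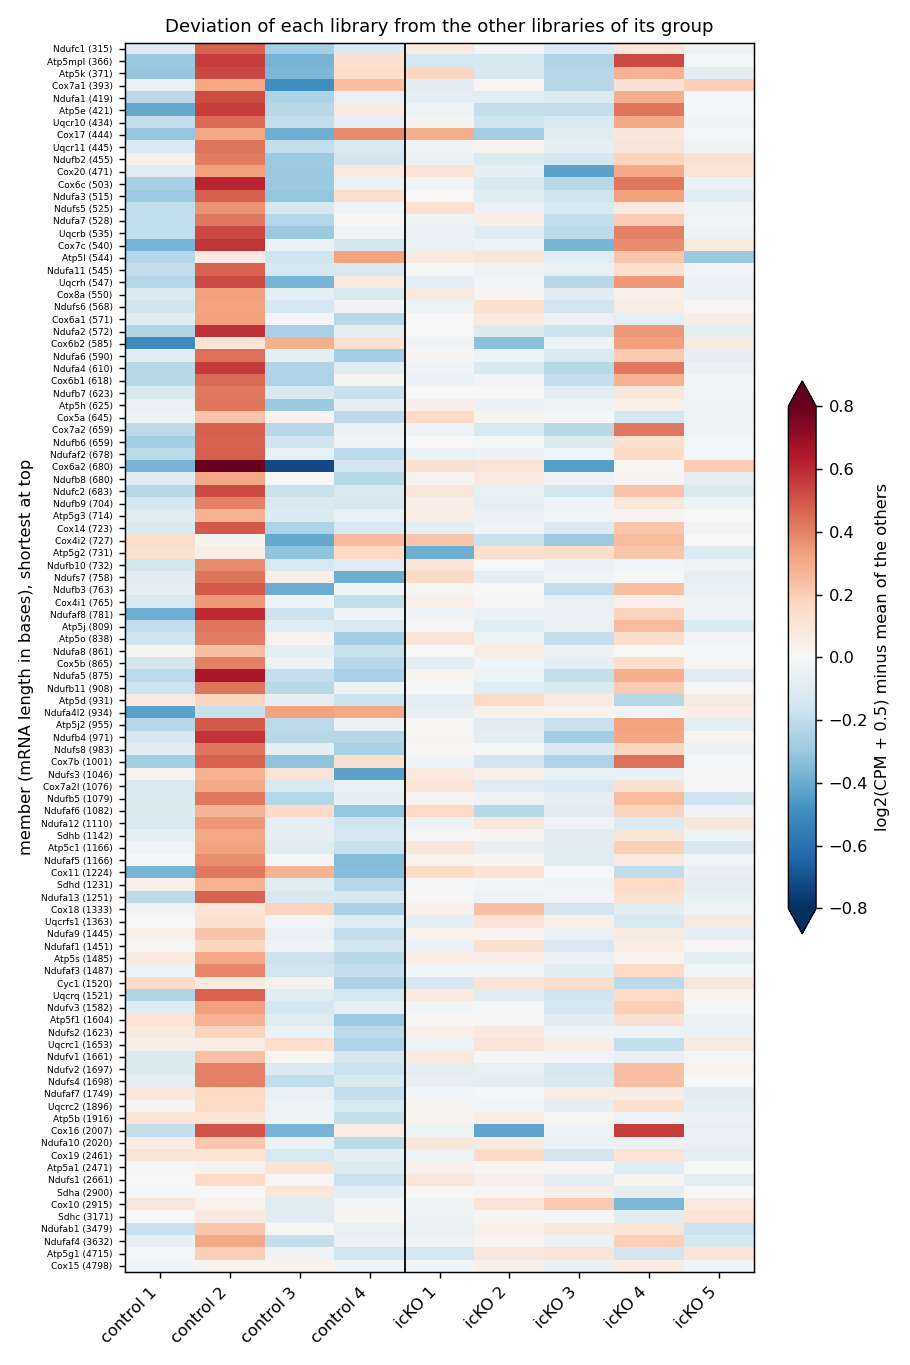
Deviation of each library from the mean of the other libraries of its group, on the scale of log2(CPM + 0.5), for the 100 members tested (rows, ordered by mRNA length from the shortest at the top) in the 4 control and 5 icKO libraries (columns). The column of control 2 is red almost throughout and strongest in the upper part, and icKO 4 shows the same to a lesser degree.

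Because control 2 stood apart in these same members, being the highest control in 86 of 100, the comparison was also made without it. Leaving out the library where most members were highest raises their fold changes and narrows the control spread. The values below follow in part from that choice and are a description only. Without control 2, the median log2 fold change of the members was 0.15, 82 of 100 lay above 0, and 1 member, Ndufa5, was called higher (log2 fold change 0.39, SE 0.08, adjusted p = 0.0435), with 0 called lower. In that fit 0.485% of all genes were called higher. At an unadjusted p under 0.05, 48 members were higher and 0 lower, against 6.94% and 7.72% of all genes. The 48 included 22 of 29 accessory complex I subunits, 8 of 11 broadly expressed complex IV genes, 5 of 9 complex III members and 6 of 12 of the ATP synthase members outside F1, but 0 of 7 core complex I subunits and 1 of 5 F1 subunits. By length, they were 26 of the 37 shortest, 16 of the 30 intermediate and 6 of the 33 longest members. With both control 2 and icKO 4 left out, the median was 0.13 and Ndufa5 was again the 1 member called (log2 fold change 0.34, adjusted p = 0.0272). With control 2 and control 4 left out it was 0.14 with 0 called.

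The direction of the median also depended on which libraries were set against each other. Y-linked genes divided the libraries into 4 with high Y-linked counts (control 1 and 3, icKO 1 and 2) and 5 with low ones (control 2 and 4, icKO 3, 4 and 5), a split that also places control 2 and icKO 4 together. Within the first, the median log2 fold change of the members was 0.16 with 0 called. Within the second it was -0.04 with 0 called. The difference of the effect between the 2 sets was called in 0 of the 100 members and in 0 (0%) of the 17258 genes tested by edgeR, and at an unadjusted p under 0.05 in 4 members, against 1.63% of all genes tested. The effects of Y-linked status and of these single libraries cannot be told apart here.

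Levels between genes were compared per kb of mRNA, using 1 reference transcript per gene, and control means. The broadly expressed complex IV subunits had the highest median, 330 CPM per kb over 10 genes, from 28 for Cox7c to 494 for Cox8a. The median was 173 CPM per kb over 16 ATP synthase subunits, 114 over 4 complex II subunits, 108 over 36 complex I subunits and 91.8 over 9 complex III subunits. Assembly factors lay lower, at a median of 21.6 CPM per kb over 8 of complex I and 11.4 over 9 of complex IV. Atp5b had the highest level of all members, 759 CPM per kb, followed by Ndufa4.

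Subunit genes that share more sequence with other genes had lower levels per kb. Of 75 subunit genes, leaving out the tissue-restricted isoforms, 45 shared under 10% of their 50-base mRNA windows with another annotated gene, and these had a median of 148 CPM per kb. Another 25 shared from 10% to under 50%, with a median of 92.3 CPM per kb. The 5 that shared 50% or more, Atp5g2, Atp5l, Cox7c, Atp5h and Atp5o, had a median of 28 CPM per kb. How the authors' counting handled reads that fit several places is not given in the sources used here, and the levels of these members are uncertain. The processed copies of Atp5g2 and Atp5l examined held few counts themselves: Gm10175 had 1 to 10 counts in a library, and Gm10221 and Atp5l2-ps had 0. Cox16 and Cox20 overlap other genes in 56.8% and 91.1% of their exon bases (Gm20498 and Hnrnpu), so their counts are uncertain as well.

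**Figure D5:**
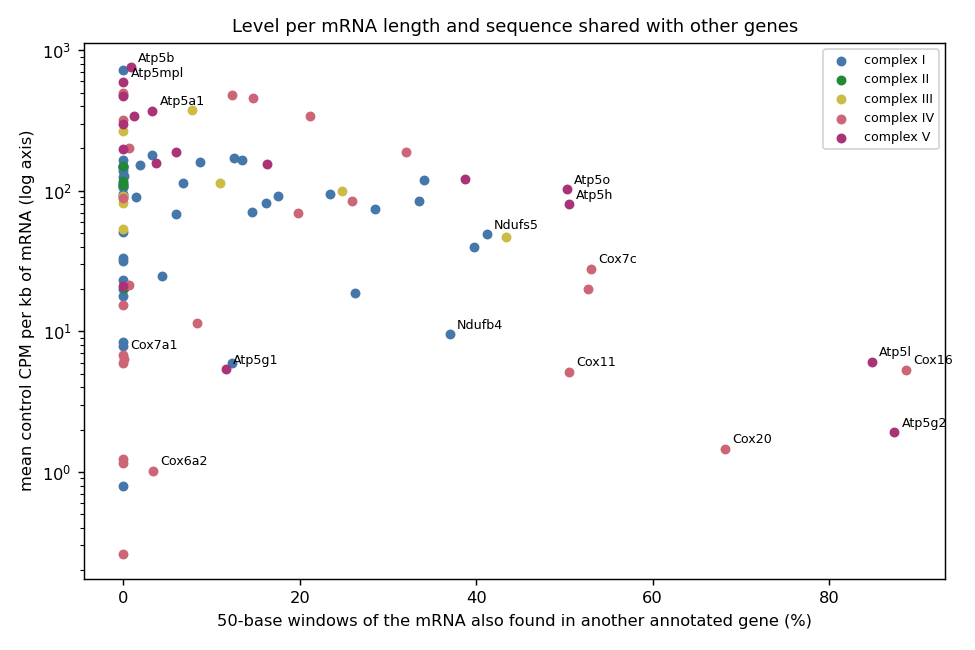
Mean control CPM per kb of mRNA (y axis, log scale) against the percentage of 50-base mRNA windows that also occur in another annotated gene (x axis) for members with counts, coloured by complex. The members at the right, among them Atp5l, Atp5g2, Cox16 and Cox20, are all at the lower end of the scale.

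The mitochondrially encoded subunits are the partners of these genes in the complexes. Of 13 genes, 7 held many counts: mt-Co1, the catalytic subunit of complex IV, had from 184302 to 271838 counts in a library, and mt-Nd6, the least of these, from 18214 to 25740. The other 6 were at or near 0. Mt-Co3, mt-Nd4l and mt-Atp8 had 0 counts in every library, mt-Co2 and mt-Atp6 at most 1, and mt-Nd3 from 2 to 11. Annotated nuclear copies of mitochondrial DNA hold 98% to 100% of the windows of mt-Co2, mt-Co3, mt-Atp6, mt-Nd4l and mt-Nd3. For mt-Atp8, which is 204 bases long, the share in annotated genes was 0%. Copies without an annotated transcript were not searched, so a nuclear copy of mt-Atp8 may exist. The 7 genes with many counts shared from 0% to 62.2% of their windows. The highest were mt-Co1 at 51.1% and mt-Nd4, with 47393 to 67582 counts in a library, at 62.2%. Apart from mt-Atp8, the genes at or near 0 all shared more than these. The part of shared sequence in the counts was not tested. A listed 0 cannot be read here as an absent transcript, since the handling of reads that fit several places is not known. The 13 genes summed to 22667, 31720, 24043 and 30715 CPM in control 1 to 4 and to 28550, 27408, 25526, 35321 and 25394 CPM in icKO 1 to 5. Control 2, control 4 and icKO 4 were the 3 highest, so that control 4, low in the nuclear-encoded sums, was high here. Of the 7 genes tested 0 were called, with log2 fold changes from 0.01 to 0.08.

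Genes around the respiratory chain were also not called. In the list of other assembly factors, 0 of 34 tested passed, with a median log2 fold change of 0.02. The smallest adjusted p in it belonged to Atpaf1, a chaperone that assembles the F1 head of ATP synthase, at 24.6, 22.5, 23.8 and 22.6 CPM in the controls and 18, 21, 18.3, 17.8 and 19.9 CPM in icKO (log2 fold change -0.30, SE 0.07, adjusted p = 0.0706). The groups did not overlap in Atpaf1, a property that 4.5% of all genes tested shared, and control 2 was its lowest control. Among 15 regulators of respiratory genes, including Nrf1, Gabpa, Yy1 and the PGC-1 coactivators, 0 were called. Esrra, an ERR receptor, had the smallest adjusted p of these, 0.329, at a log2 fold change of -0.18 (SE 0.07). Nrf1 was at 0.05 (SE 0.07), Gabpa at 0.13 (SE 0.07) and Ppargc1a at 0.04 (SE 0.08). The 13 citric acid cycle genes had a median of -0.03 and 0 calls, and they summed to 2769 ± 160 CPM (SD, n = 4) in control and 2701 ± 63.8 CPM (SD, n = 5) in icKO. The 14 genes for electron carriers and coenzyme Q synthesis had a median of 0.00, the 3 ATP and phosphate carriers a median of -0.03, and 77 mitochondrial ribosomal proteins a median of 0.03, each with 0 calls.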

How the data were processed

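Lumbar dorsal root ganglia were profiled by mRNA-seq in 5 icKO and 4 control libraries, grouped by their titles. The files deposited by the authors hold raw gene counts, unnormalized, 1 table per library. Tools named in the submitters' processing notes are STAR 2.5.2a, featureCounts 1.5.0-p1 and bcl2fastq 2.20.0.422, with genome mm10. Not given in the sources used here are the annotation release, the strand setting and the rule for multi-mapping reads. The identifiers matched those of GENCODE M21 on the same build, which gave symbols, positions and transcripts.

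Genes passing filterByExpr (minimum count 10, minimum total 15) were scaled with TMM and compared with edgeR 4.0.16 (R 4.3.3, quasi-likelihood, Benjamini-Hochberg threshold 0.05 over 17258 genes). The script was tested on simulated data of 17077 genes. DESeq2 1.42.0, other scalings and filters, each library left out, a replicate block and a Y-linked covariate were alternatives. The members, lists, motifs and tests were chosen with earlier results of these data known. Named members are, for each class, the 2 with the smallest p and the highest level per kb, and the paralogs of tissue-restricted isoforms. Other members named were chosen after their values were seen. Shared sequence was counted as 50-base windows of 1 transcript per gene that occur in transcripts of another gene. Replicate pairs differed by 6 to 23.1 times the counting noise (chi-square per degree of freedom), so each library was counted once. Depth was 19607740 to 29481589 counts per library, and intervals from counts cover counting error only. No protein sequences were used here.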

Additional observations from a re-analysis of the deposited data

Results flagged for a closer look

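In these results the highest library lay apart from the others of its group by Dixon's criterion for 4 or 5 samples, which chance meets in about 1 of 20 groups. Of 90 groups of libraries examined (the sums and the named members), 24 met it (26.7%), and in 13 of these the library was control 2. The groups share libraries and are not independent. No cause was tested.

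Control 2 stood apart in the summed CPM of all members, at 14431, of complex I, at 4909, of complex III, at 1237, and of complex IV, at 2795. Among single genes it stood apart at 196 CPM for Ndufv2, 128 CPM for Ndufa5, 583 CPM for Ndufa4, 201 CPM for Sdhb, 145 CPM for Uqcr10, 87.3 CPM for Cox7a2l, 82.5 CPM for Cox14, 156 CPM for Atp5j and 321 CPM for Cox8a.

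In the icKO group, icKO 4 stood apart at 79.8 CPM for Ndufa1, 19.2 CPM for Ndufaf8, 26.1 CPM for Ndufaf2, 618 CPM for Ndufa4, 36.9 CPM for Uqcrb, 251 CPM for Cox6c, 73 CPM for Cox14, 176 CPM for Atp5e, 315 CPM for Atp5mpl and 295 CPM for Cox7a2. Control 1 stood apart at 1.06 CPM for Cox8b.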

How the results depend on the processing

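Counts of called members stayed at 0 higher and 0 lower under the other scalings (DESeq2's size factors, library totals), DESeq2, robust dispersion, the stricter filter, the Y-linked covariate and within either set of libraries. Without a count filter 1 member, Cox8b, was called lower, and with control 2 and icKO 4 both left out, an alternative added after seeing the data, 1 member, Ndufa5, was called higher. Leaving out 1 library at a time gave 0 to 1 members called higher, the 1 being Ndufa5 without control 2, and 0 called lower. The median log2 fold change ranged from 0.02 to 0.15 over these 9 fits, and was -0.04 within the libraries of low Y-linked counts. The log2 ratio of summed CPM ranged over them from 0.02 to 0.16 for complex I, -0.03 to 0.04 for complex II, 0.01 to 0.12 for complex III, 0.03 to 0.18 for complex IV and -0.02 to 0.07 for complex V. The highest value of each was without control 2. With a replicate block the median was 0.06 and 0 members were called. Deviations of same-numbered libraries correlated at 0.103, -0.175, -0.0441 and 0.17, and those of differently numbered libraries at -0.324 to 0.412. So few pairs cannot decide whether the numbers pair the samples. Of 774 values of 37 named members under 21 alternatives, 2 passed the threshold, both of Ndufa5, and 54, none of them called, differed in sign from the reported estimate. With 1 library left out, the log2 fold change crossed 0 for Ndufs3 (-0.15 to 0.02), Ndufv2 (-0.01 to 0.15), Ndufs7 (-0.07 to 0.13), Ndufa4l2 (-0.28 to 0.06), Cox6a2 (-1.01 to 0.11), Cox6b2 (-0.23 to 0.01), Cox7a1 (-0.20 to 0.02), Cox14 (-0.05 to 0.14), Atp5b (-0.07 to 0.01), Cox4i1 (-0.02 to 0.12), Cox4i2 (-0.16 to 0.07), Cox6a1 (-0.04 to 0.11) and Cox7b (0.00 to 0.23). Within the libraries of low Y-linked counts it was -0.02 for Atp5e and Ndufv2, -0.03 for Atp5mpl and Cox6b1, -0.04 for Ndufaf8 and Ndufs7, -0.05 for Cox4i1 and Cox8a, -0.06 for Cox6a1, Cox7b and Uqcrh, -0.12 for Cox14 and Cox17, and 0.00 after rounding for Ndufa2, Ndufaf2 and Sdhb. Within those of high Y-linked counts it was 0.16 for Cox4i2, 0.51 for Cox6a2 and 0.14 for Cox7a1. With control 2 and control 4 both left out it was 0.12 for Cox4i2, 0.32 for Cox6a2 and 0.17 for Cox7a1, and with control 2 and icKO 4 both left out 0.02 for Atp5b, 0.12 for Cox6a2 and 0.04 for Ndufs3. With the Y-linked covariate Cox14 was at -0.01, and under the stricter filter at 0.00. The cause of these differences was not tested. Depth limits Cox7b2, Cox8b and Cox8c, which were near or under the floor of 3 counts in most libraries.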
